A study of Mus musculus with 22 samples.

Results

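The 10 CC chemokine genes Ccl2, Ccl3, Ccl4, Ccl5, Ccl6, Ccl7, Ccl8, Ccl9, Ccl11 and Ccl19 were followed in polyadenylated RNA of mouse heart cells. They were taken by symbol from a deposited table of 23359 genes. Levels are in FPKM, fragments per kilobase of transcript scaled to the mapped fragments of each library. The unit divides by transcript length, but FPKM still changed with length in these libraries, as given below, so comparisons between genes are approximate. All 10 genes passed the filter used for the tests, which asked for 2 or more libraries with an FPKM of 1 or more.

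All libraries came from male wild-type C57BL/6 mice of 10 to 14 weeks. Cardiac fibroblasts, the cells that lay down the collagen matrix of the heart, were profiled in sedentary mice (n = 3), in sham mice at day 3 (n = 2), after 3 days (n = 3) and 10 days (n = 3) of TAC, 5 days after MI (n = 2), and after 4 days (n = 3) and 10 days (n = 3) of swimming. Cardiomyocytes, the contracting muscle cells, were profiled in sedentary mice (n = 3). The labels do not spell out TAC and MI, which are read here as transverse aortic constriction, a surgical pressure overload, and myocardial infarction. They give neither the way the cells were isolated nor whether each library was a separate animal or a pool, so the p-values speak for the scatter of these libraries alone, which may be technical.

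CC chemokines are small secreted proteins that attract leukocytes through G-protein-coupled receptors. Fibroblasts and macrophages release them when nuclear factor kappa B or interferon signalling is switched on, and in the injured heart CCL2 acting on CCR2 is known to recruit monocytes. Receptors are shared: CCR2 binds Ccl2 and Ccl7, CCR3 binds the eotaxins such as Ccl11, and CCR7 binds Ccl19.

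In the mm10 coordinates of the deposited table, 9 of the 10 genes lay on chromosome 11 and Ccl19 lay on chromosome 4 (42754525 to 42756518, minus strand). One run on the plus strand held Ccl2 (82035577 to 82037452), Ccl7 (82045712 to 82047523), Ccl11 (82057832 to 82062955) and Ccl8 (82115185 to 82116799). The other run held Ccl5 (83525779 to 83530518), Ccl9 (83572917 to 83578636), Ccl6 (83582061 to 83623693) and Ccl3 (83647843 to 83649378) on the minus strand and Ccl4 (83662584 to 83664683) on the plus strand. The table's Ccl6 locus also covers E230016K23Rik, and the loci of Ccl2 and Ccl19 overlap Gm17268 and 4930578G10Rik. In the GENCODE transcripts, 59.1% of the 50-base words of Ccl19 also occur in Ccl19-ps1, Ccl19-ps3, Gm12407 or Gm2564, so its level is uncertain.

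RefSeq start-site sequence (GRCm38.p6) matched 5 of the 10 genes: Ccl3, Ccl6, Ccl8, Ccl9 and Ccl19. The 250 bases upstream of Ccl3 and Ccl8 are shown because these genes, of the separate runs on chromosome 11, differed in opposite directions between 10 days of swimming and 10 days of TAC. Capitals mark a match to the interferon element GAAANNGAA on either strand; Ccl3 (chr11:83649379-83649628, minus strand) has 1 and Ccl8 (chr11:82114935-82115184, plus strand) has none.
Ccl3: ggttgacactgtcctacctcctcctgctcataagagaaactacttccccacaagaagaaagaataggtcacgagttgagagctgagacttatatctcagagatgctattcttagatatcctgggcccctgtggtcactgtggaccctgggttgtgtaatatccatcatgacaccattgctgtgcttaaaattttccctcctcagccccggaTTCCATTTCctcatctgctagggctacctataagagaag
Ccl8: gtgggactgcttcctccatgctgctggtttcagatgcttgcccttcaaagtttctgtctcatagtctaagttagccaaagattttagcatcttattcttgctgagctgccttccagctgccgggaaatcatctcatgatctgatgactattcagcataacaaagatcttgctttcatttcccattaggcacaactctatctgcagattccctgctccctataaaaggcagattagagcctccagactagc
The Ccl3 match read TTCCATTTC on the gene's strand, from -39 to -31 relative to the start site. Ccl19 had GAAAGTGAA from -208 to -200. Its window (chr4:42756366-42756615, minus strand) overlaps the gene itself, which runs to 42756518 in the deposited coordinates and to 42756577 in GENCODE. The Ccl19 match is thus not upstream of every annotated start of the gene. The interferon element occurred in 7.13% of 32851 upstream windows of the same length. The kappa B forms GGGANTTTC and GGGAANTCC, searched on both strands, occurred in 0.941% and 1.06% of the windows and in none of the 5 matched genes. A match is a description of letters, not of a binding site.

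The libraries differed in ways that touch these genes. Across genes, log2(FPKM + 1) changed per doubling of transcript length by -0.179 to -0.303 in the sedentary, sham and MI fibroblasts and by -0.529 to -0.9 in the TAC, swim and cardiomyocyte libraries. The 10 chemokines have short transcripts, with a median of 787 bases against 3058 for all genes tested. Comparisons of the members across that divide were therefore also run with each library's trend on transcript length and GC content removed. Not all of these values are printed below, and none is given for the cell type markers. The FPKM file holds no read counts; the steps between low values put the depth of the libraries between 1 and 3.3 times that of the shallowest. Rn45s, the ribosomal RNA precursor, was at 146 to 273 FPKM in the sedentary and sham libraries, 1289 and 120 in MI, 361 to 6988 in the TAC and swim and 756 to 2971 in the cardiomyocyte libraries; its part in the results was not tested. The 8 fibroblast markers summed to 949 to 3847 FPKM in the fibroblast libraries and 126 to 305 in cardiomyocytes, and the 7 cardiomyocyte markers to 25.5 to 351 against 11225 to 14895. The fibroblast libraries also carried macrophage RNA: 15 macrophage and monocyte markers summed to 614 to 1923 FPKM, among them Csf1r at 15.5 to 46.6. The 12 T and NK cell markers summed to 0.381 to 2.81 FPKM in the fibroblast libraries. In bulk RNA, fewer cells of a type and less RNA per cell cannot be told apart.

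Levels spanned a wide range in fibroblasts. Ccl2 and Ccl7 were the most abundant, with Ccl2 reaching 1626 FPKM and Ccl7 871, and in sedentary fibroblasts they made up 62.1% to 77.1% of the summed FPKM of the 10 genes. Ccl4, Ccl3 and Ccl5 followed in sedentary cells, with means of 242, 148 and 114 FPKM, then Ccl9 (16.4), Ccl6 (14), Ccl11 (10.7), Ccl8 (6.68) and Ccl19 (3.69). The 10 genes summed to 818 to 2705 FPKM in sedentary, 1685 to 3007 in sham, 1466 to 2387 in 3 day TAC, 356 to 590 in 10 day TAC, 730 to 783 in MI, 1016 to 2569 in 4 day swim and 1536 to 3311 in 10 day swim fibroblasts. The sums of the 10 day TAC and MI libraries all lay below those of the other 14 fibroblast libraries. Sedentary library 3 had the lowest sum of its group at 818.

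**Figure D1:**
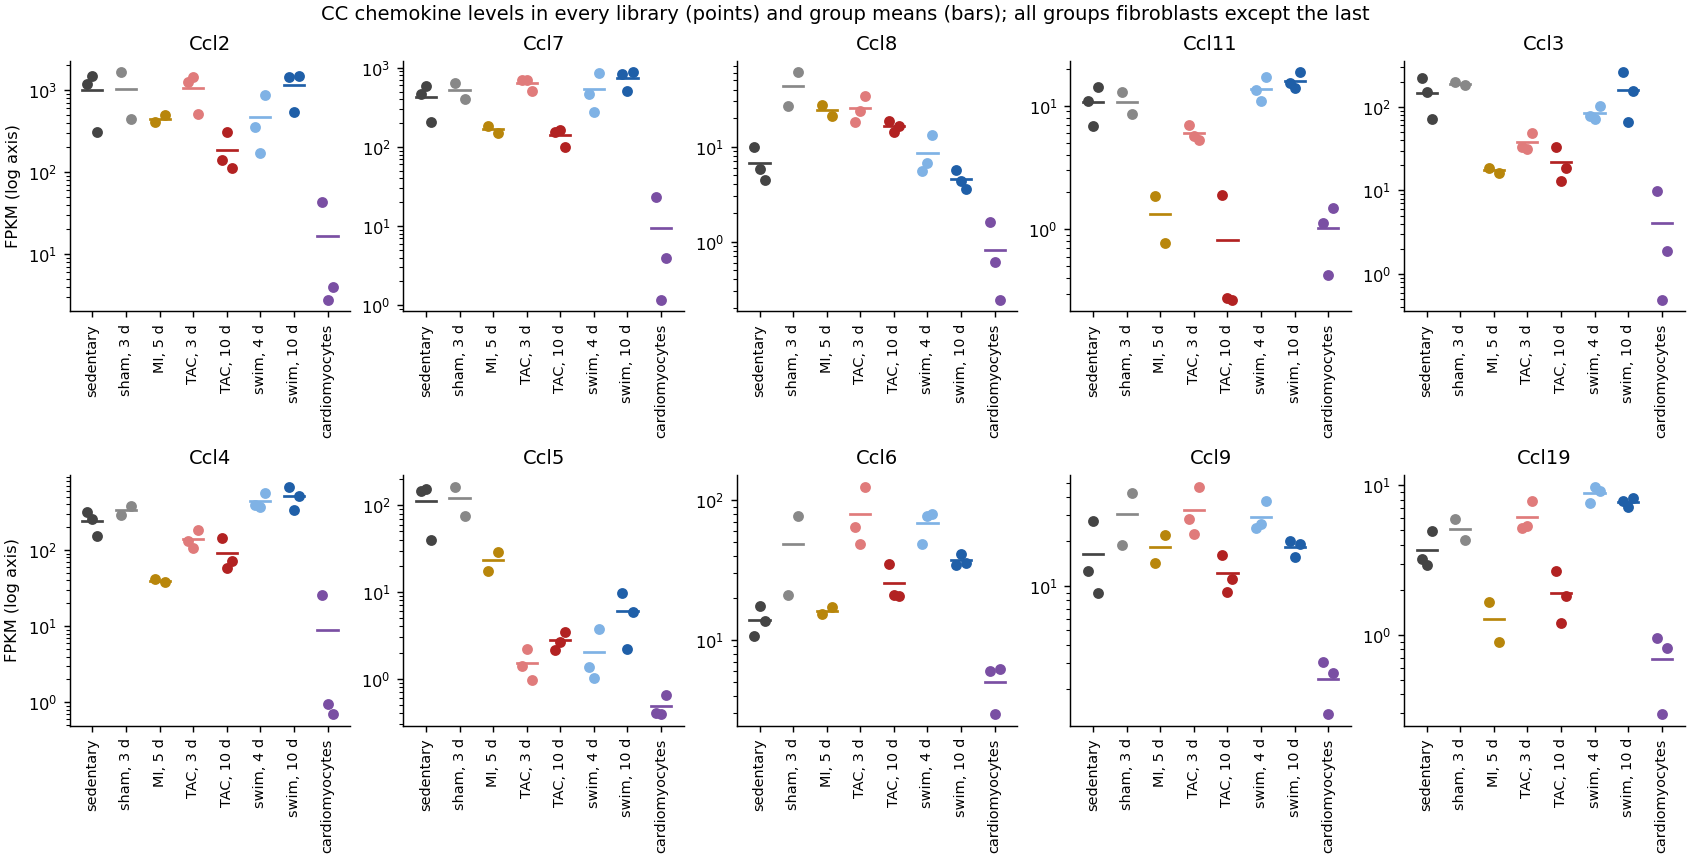
FPKM of each gene (log axis) by group; points are libraries and bars are group means. The 10 day TAC points of Ccl11 sit between 0.267 and 1.91, below all 3 day TAC and swim points, and the TAC and swim points of Ccl5 lie below 10 while sedentary and sham points lie between 39.5 and 165.

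Ccl2, the classical monocyte attractant, varied widely among replicates. It was at 1164, 1490 and 303 FPKM in sedentary fibroblasts, 1626 and 447 in sham and 1248, 1435 and 502 after 3 days of TAC. The 10 day TAC libraries had 138, 308 and 111, and the MI libraries 408 and 487. Swimming libraries had 353, 172 and 871 at 4 days and 1441, 541 and 1459 at 10 days. The 10 day TAC libraries had the lowest mean of the fibroblast groups and did not overlap the 10 day swim libraries, while they overlapped sedentary library 3. By limma, Ccl2 was lower after 10 days of TAC than in sedentary cells (log2 fold change -2.26, SE 0.728, adjusted p = 0.0135) and higher after 10 days of swimming than after 10 days of TAC (2.63, SE 0.728, adjusted p = 0.0189). Both calls rested on single libraries: the first was lost without 10 day TAC library 3 (adjusted p = 0.0512), sedentary library 1 (0.0547) or sedentary library 2 (0.0585), and the second without 10 day TAC library 1 (0.0505) or 3 (0.0781) or 10 day swim library 1 (0.082) or 3 (0.0792). Between 10 and 3 days of TAC the value was -2.52 (SE 0.728) with an adjusted p of 0.053.

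Ccl7, a second CCR2 ligand, followed a similar order with less spread. Sedentary fibroblasts had 465, 596 and 205 FPKM, sham 650 and 404, 3 day TAC 706, 708 and 513, and 10 day TAC 156, 162 and 101. MI libraries had 183 and 150, 4 day swim 471, 273 and 866, and 10 day swim 835, 506 and 871. Every 10 day TAC and MI library lay below every other fibroblast library. Ccl7 fell from 3 to 10 days of TAC (log2 fold change -2.21, SE 0.406, adjusted p = 0.00355) and was lower at 10 days of TAC than in sedentary cells (-1.49, SE 0.406, adjusted p = 0.00436). It was higher after 10 days of swimming than after 10 days of TAC (2.38, SE 0.406, adjusted p = 0.000748). Its difference between MI and sedentary cells did not pass limma's test (-1.21, SE 0.454, adjusted p = 0.103).

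Ccl8, located in the same run of genes as Ccl2 and Ccl7, went the other way. It was at 9.85, 5.77 and 4.41 FPKM in sedentary cells, 27.1 and 60.5 in sham, 27.7 and 21.1 after MI, 18.4, 23.5 and 33.9 after 3 days of TAC and 18.8, 14.4 and 16.6 after 10 days. Swimming libraries had 5.56, 6.8 and 13.2 at 4 days and 5.64, 4.34 and 3.6 at 10 days. All libraries of the surgical groups, sham included, exceeded all sedentary and swim libraries. Ccl8 was higher than in sedentary cells after MI (log2 fold change 1.78, SE 0.373, adjusted p = 0.00429), after 10 days of TAC (1.25, SE 0.334, adjusted p = 0.00349) and in sham (2.50, SE 0.373, adjusted p = 0.033). It was lower after 10 days of swimming than of TAC (-1.68, SE 0.334, adjusted p = 0.00211). With the length and GC trend removed the 10 day TAC value against sedentary was 0.42 (adjusted p = 0.285) and the sham value 2.36 (adjusted p = 0.0914). The sham call was also lost without sham library 2 (1.93, adjusted p = 0.998), without sedentary library 2 (2.44, adjusted p = 0.118) or 3 (2.28, adjusted p = 0.0706), and the MI call without MI library 1 (1.59, adjusted p = 0.0516). The difference between 3 day TAC and sham did not pass limma's test as deposited (-0.70, adjusted p = 0.117). With the trend removed Ccl8 was lower after 3 days of TAC than in sham (-1.58, adjusted p = 0.00259).

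Ccl11, or eotaxin, which attracts eosinophils through CCR3, was at 11, 6.82 and 14.2 FPKM in sedentary and 12.9 and 8.57 in sham fibroblasts. It was at 7.01, 5.73 and 5.27 after 3 days of TAC, 1.91, 0.276 and 0.267 after 10 days and 1.87 and 0.771 after MI. Swimming libraries had 13.4, 10.9 and 17 at 4 days and 15.2, 14 and 18.6 at 10 days. The 10 day TAC and MI libraries overlapped each other and the cardiomyocytes (1.13, 0.425 and 1.5) and lay below every other fibroblast library. Ccl11 was lower than in sedentary cells after 10 days of TAC (log2 fold change -2.75, SE 0.311, adjusted p = 2.44e-06) and after MI (-2.32, SE 0.347, adjusted p = 0.000199), fell from 3 to 10 days of TAC (-2.06, SE 0.311, adjusted p = 0.000663), and was higher after 10 days of swimming than of TAC (3.33, SE 0.311, adjusted p = 2.2e-06). With a pseudocount of 0.1 in place of 1 the change from 3 to 10 days of TAC was -3.22, since a pseudocount of 1 compresses levels near 1 FPKM. The eosinophil and mast cell markers, 6 genes, summed to 0.296 to 2.44 FPKM in fibroblast libraries.

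Ccl3 and Ccl4, the macrophage inflammatory proteins and neighbours on chromosome 11, were low in both injury models. Ccl3 was at 221, 152 and 71.9 FPKM in sedentary and 196 and 181 in sham cells, against 33.4, 31.2 and 48.5 after 3 days of TAC, 33.2, 12.9 and 18.7 after 10 days and 18.8 and 16.1 after MI. It was at 78.7, 70.7 and 102 after 4 days and 258, 66.7 and 153 after 10 days of swimming. No TAC or MI library reached the lowest sedentary, sham or swim library. Ccl3 was lower after 3 days of TAC than in sham (log2 fold change -2.32, SE 0.498, adjusted p = 0.000967), lower than sedentary after 10 days of TAC (-2.68, SE 0.445, adjusted p = 8.49e-05) and after MI (-2.88, SE 0.498, adjusted p = 0.00106), and higher after 10 days of swimming than of TAC (2.72, SE 0.445, adjusted p = 0.00058).

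Ccl4 was at 320, 253 and 153 FPKM in sedentary, 285 and 385 in sham, 131, 105 and 183 in 3 day TAC, 144, 58.1 and 71.8 in 10 day TAC and 41.3 and 37.8 in MI fibroblasts. Swimming libraries had 394, 369 and 569 at 4 days and 683, 337 and 520 at 10 days. MI libraries were the lowest and swim libraries exceeded all sedentary ones. Ccl4 was lower after 3 days of TAC than in sham (log2 fold change -1.28, SE 0.386, adjusted p = 0.0096), a call lost without sham library 2 (-1.06, adjusted p = 0.084); with the length and GC trend removed the value was -2.18. It was lower than sedentary after 10 days of TAC (-1.44, SE 0.345, adjusted p = 0.00161; -2.33 with the trend removed) and MI (-2.52, SE 0.386, adjusted p = 0.000257), and lower after MI than after 10 days of TAC (-1.08, SE 0.386, adjusted p = 0.0248). That last call was lost without MI library 1 (adjusted p = 0.0747) or 2 (0.115) or 10 day TAC library 1 (0.119), and with the length and GC trend removed (-0.30, adjusted p = 0.571).

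Against sedentary cells Ccl4 rose at 4 days (0.91, SE 0.345, adjusted p = 0.0282) and 10 days of swimming (1.09, SE 0.345, adjusted p = 0.0172). With the trend removed these Ccl4 values were -0.21 (adjusted p = 0.642) and 0.28 (adjusted p = 0.573). They were also lost without sedentary library 3 (0.61, adjusted p = 0.145, and 0.79, adjusted p = 0.0877), without 4 day swim library 3 (0.72, adjusted p = 0.111) and without 10 day swim library 1 (0.85, adjusted p = 0.0794) or 3 (1.05, adjusted p = 0.05). Against 10 day TAC, which lies on the same side of the length divide, Ccl4 was higher after 10 days of swimming by 2.53 (SE 0.345, adjusted p = 9.31e-05), and by 2.62 with the trend removed. The ratio of Ccl4 to Ccl3 was 1.45 to 2.13 in sedentary and sham libraries, 2.2 and 2.35 in MI and 2.65 to 5.59 in TAC and swim libraries.

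Ccl5, or RANTES, made by activated T cells, macrophages and stromal cells, showed the widest range. It was at 148, 154 and 39.5 FPKM in sedentary and 165 and 75.2 in sham fibroblasts, and at 17.7 and 29 after MI. It was at 1.38, 2.22 and 0.962 after 3 days of TAC, 2.15, 2.68 and 3.44 after 10 days, 1.36, 1.01 and 3.78 after 4 days of swimming and 9.84, 2.2 and 5.82 after 10 days. The sedentary, sham and MI libraries did not overlap the TAC and swim libraries. Ccl5 was lower after 3 days of TAC than in sham (log2 fold change -5.51, SE 0.588, adjusted p = 4.36e-06) and lower than sedentary after 10 days of TAC (-4.72, SE 0.526, adjusted p = 3.56e-06), 4 days of swimming (-5.11, SE 0.526, adjusted p = 1.72e-06) and 10 days of swimming (-3.98, SE 0.526, adjusted p = 5.8e-05).

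This division of Ccl5 levels is the one that the length dependence also makes, and the 2 cannot be told apart by group. With the length and GC trend removed the 4 Ccl5 values were -6.53, -5.78, -6.31 and -4.82, each still past the threshold (largest adjusted p = 0.000124). Ptprc (CD45), the common leukocyte marker, was divided along the same groups as deposited. It was at 3.58 to 8.59 FPKM in sedentary, 8.93 to 10.7 in sham and 4.7 to 5.62 in MI libraries. The TAC and swim libraries had 0.377 to 3.23. Of the 15 macrophage and monocyte markers 5 were lower (25.8% of all genes) and 2 higher (31.3%) after 3 days of TAC than in sham. Their median log2 fold change was -0.45, against 0.05 over all genes. Cd68 was at 22.8 to 33.1 against 35 to 51.8 FPKM and Mrc1 at 5.96 to 8.01 against 15.7 to 33.9. In the other direction, Ly6c2 was at 221 to 242 against 80.5 to 105 and C1qa at 201 to 291 against 74.5 to 191. Against sedentary 1 was lower (27% of all genes) and 4 higher (38.8%) after 10 days of TAC (median -0.04 against 0.12). After 4 days of swimming 4 were higher (38.2%) and none lower (26.3%), with a median of 0.40 against 0.13. After 10 days of swimming 3 were higher (30%) and none lower (13.6%), with a median of 0.23 against 0.14. These marker values also lie across the length divide, and none is given with the trend removed. They therefore cannot separate leukocyte content from the length dependence. The part of any cell type in the Ccl5 result was not tested. After MI, Ccl5 was lower than in sedentary cells (-2.04, SE 0.588, adjusted p = 0.0347) and higher than after 10 days of TAC (2.67, SE 0.588, adjusted p = 0.00143). The MI call against sedentary was lost with a pseudocount of 0.1 (adjusted p = 0.06), with only those groups in the fit (0.108), and without MI library 1 (0.207) or 2 (0.129) or sedentary library 1 (0.125) or 2 (0.0822).

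Ccl6 and Ccl9, rodent CCR1 ligands of myeloid cells, lie next to each other on chromosome 11. Ccl6 was at 10.7, 17.6 and 13.7 FPKM in sedentary, 21.1 and 76.8 in sham, 63.8, 48.7 and 125 in 3 day TAC, 34.9, 21 and 20.5 in 10 day TAC and 15.3 and 17.1 in MI fibroblasts, and at 48.6, 76.8 and 79.8 after 4 days and 34.6, 41.2 and 35.5 after 10 days of swimming. Swim libraries all exceeded sedentary ones. Ccl6 rose against sedentary after 4 days (log2 fold change 2.21, SE 0.393, adjusted p = 0.000134) and 10 days of swimming (1.37, SE 0.393, adjusted p = 0.0101). With the trend removed the Ccl6 values were 1.53 (adjusted p = 0.00315) and 0.82 (adjusted p = 0.106), so that only the 4 day call was kept. From 3 to 10 days of TAC Ccl6 fell by 1.52 on the log2 scale (SE 0.393, adjusted p = 0.0271), a call lost without 3 day TAC library 1 (adjusted p = 0.0664) or 3 (0.119) or 10 day TAC library 2 (0.0993) or 3 (0.0917).

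Ccl9 was at 12.6, 27.6 and 8.99 FPKM in sedentary, 18.8 and 42.6 in sham, 28.4, 22.6 and 47.1 in 3 day TAC, 16.2, 9.1 and 11.1 in 10 day TAC, 14.3 and 22.2 in MI, 24.5, 26.2 and 37.6 in 4 day swim and 20, 15.8 and 19.1 in 10 day swim fibroblasts. It fell from 3 to 10 days of TAC (log2 fold change -1.33, SE 0.374, adjusted p = 0.0421) and rose after 4 days of swimming (0.93, SE 0.374, adjusted p = 0.0382), although 4 day swim libraries overlapped sedentary library 2. Both calls rested on single libraries. The TAC call was lost without 3 day TAC library 1 (adjusted p = 0.102) or 3 (0.153) or 10 day TAC library 2 (0.148) or 3 (0.105), and the swim call without sedentary library 1 (0.82, adjusted p = 0.112) or 3 (0.60, adjusted p = 0.184) or 4 day swim library 2 (adjusted p = 0.0617) or 3 (0.74, adjusted p = 0.13). In the fits that left out the filter, the adjusted p was 0.0745 for TAC and 0.074 for swimming. The neutrophil markers, 5 of 6 listed genes in the table, ranged from 12.2 to 136 summed FPKM at 3 days of TAC and 3.59 to 7.79 at 10 days, and their part in the fall of Ccl6 and Ccl9 was not tested.

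Ccl19, the CCR7 ligand that guides dendritic and T cells, had the lowest mean of the 10 genes in sedentary, sham and MI fibroblasts, but not in the TAC and swim groups. It was at 3.21, 2.92 and 4.94 FPKM in sedentary, 5.98 and 4.29 in sham, 5.16, 5.37 and 7.85 in 3 day TAC, 2.68, 1.2 and 1.83 in 10 day TAC and 1.65 and 0.89 in MI fibroblasts, and at 7.56, 9.81 and 9.19 after 4 days and 7.91, 7.16 and 8.22 after 10 days of swimming. The 10 day TAC and MI libraries lay below all others. Ccl19 fell from 3 to 10 days of TAC (log2 fold change -1.31, SE 0.22, adjusted p = 0.00163) and was higher after 10 days of swimming than of TAC (1.63, SE 0.22, adjusted p = 8.39e-05). Against sedentary it was lower after MI (-1.04, SE 0.246, adjusted p = 0.00947) and after 10 days of TAC (-0.70, SE 0.22, adjusted p = 0.01; -1.89 with the trend removed). The MI call was lost without MI library 2 (-0.80, adjusted p = 0.223), and the TAC call without 10 day TAC library 2 (-0.52, adjusted p = 0.0643) or sedentary library 3 (-0.52, adjusted p = 0.0564). Its rises against sedentary after 4 days (1.09, SE 0.22, adjusted p = 0.000381) and 10 days of swimming (0.92, SE 0.22, adjusted p = 0.00293) were not kept with the trend removed, where they were -0.15 (adjusted p = 0.597) and 0.10 (adjusted p = 0.775).

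Counted by comparison, the members were read against the share of all 9425 tested genes called by the same rule, a Benjamini-Hochberg adjusted p under 0.05 in limma. After 10 days of TAC 7 of 10 members were lower than sedentary (27% of all genes) and 1 higher (38.8%), with a median log2 fold change of -1.46 against 0.12 over all genes. After MI 5 were lower (2.34% of all genes) and 1 higher (8.93%), with a median of -1.13 against 0.10. Between 10 days of swimming and 10 days of TAC 6 were higher with swimming (10.9% of all genes) and 1 lower (13.2%), with a median of 2 against 0.02. From 3 to 10 days of TAC 5 fell (2.18% of all genes) and none rose (4.42%), with a median of -1.32 against -0.02. The genes that fell were Ccl6, Ccl7, Ccl9, Ccl11 and Ccl19, and 3 remained called in the fit with no filter. Markers of other cell types moved with these comparisons. Of 7 endothelial markers 5 rose from 3 to 10 days of TAC (median log2 fold change 1.10), with summed levels of 8.95 to 24.3 FPKM at 3 days and 38.5 to 91.8 at 10 days, and 3 were lower and none higher in 10 day swim than in 10 day TAC libraries. Of 8 fibroblast markers 6 were higher and 2 lower in 10 day swim than in 10 day TAC libraries (median 1.04), with sums of 3241 to 3726 against 949 to 1722 FPKM. From 3 to 10 days of TAC limma called none of the 8 (3 had an unadjusted p under 0.05), and 4 were lower and 2 higher at 10 days of TAC than in sedentary cells. The part of these cell types in the chemokine counts was not tested.

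After 3 days of TAC 3 members were lower than in sham (25.8% of all genes) and none higher (31.3%), with a median of -0.28 against 0.05. Against sedentary, 4 rose (38.2%) and 1 fell (26.3%) at 4 days of swimming, with a median of 0.34 against 0.13, and 3 rose (30%) and 1 fell (13.6%) at 10 days, with a median of 0.48 against 0.14. The sham group, against sedentary, had 1 member higher (0.0212%, which is 2 genes) and none lower (0%); 3 members had an unadjusted p under 0.05, and Cuffdiff in the authors' deposited table had 2 higher. MI against 10 day TAC, which also lie across the length divide, gave 1 higher (27.1%) and 1 lower (30.1%). Between 10 and 4 days of swimming no member passed limma's test in either direction (0.0106% of all genes rose and 0.308% fell), while 3 had an unadjusted p under 0.05 and the authors' deposited table marked 2 higher and 1 lower.

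**Figure D2:**
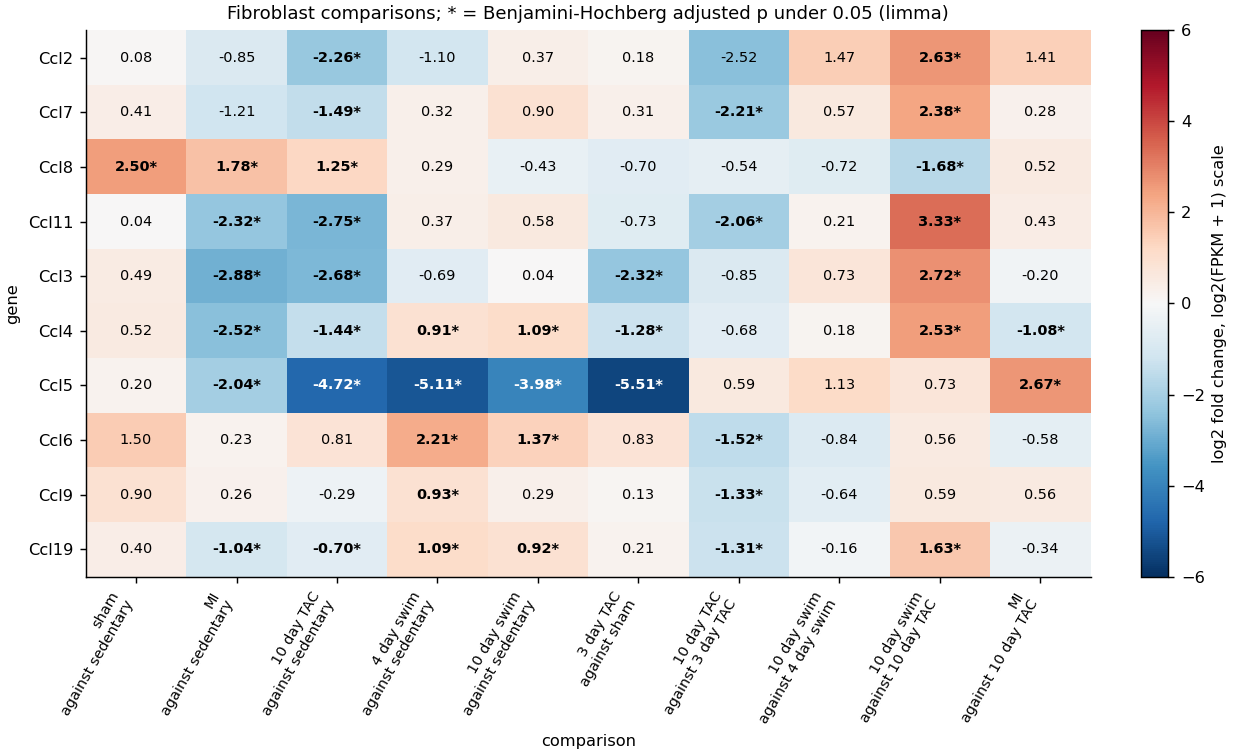
Log2 fold changes (colour and number) of the 10 genes (rows) in 10 fibroblast comparisons (columns), with an asterisk where the adjusted p was under 0.05. The 10 day swim against 10 day TAC column holds 6 positive calls and 1 negative call (Ccl8), and Ccl5 holds values of -3.98 to -5.51 in the 4 comparisons of TAC or swim with sedentary or sham.

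The length and GC trend changed these counts where the groups compared lay on different sides of the divide. With it removed, 6 members were lower after 3 days of TAC than in sham, Ccl8 (-1.58, adjusted p = 0.00259), Ccl11 (-1.20, adjusted p = 0.0267) and Ccl19 (-0.89, adjusted p = 0.0112) in addition to Ccl3, Ccl4 and Ccl5. At 4 days of swimming 2 rose (Ccl6 and Ccl9) and 3 fell (Ccl2, Ccl3 and Ccl5), and at 10 days none rose and 2 fell (Ccl5 and Ccl8). At 10 days of TAC 7 fell and none rose. Between MI and 10 day TAC 3 were higher after MI, Ccl5 (3.61, adjusted p = 0.000351), Ccl8 (1.26, adjusted p = 0.0124) and Ccl19 (0.72, adjusted p = 0.0359), and none lower. The directions and calls of all members in 10 day swim against 10 day TAC and in MI against sedentary were the same with and without the trend. The share of all genes called with the trend removed is not given here, so these member counts are a description only.

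**Figure D3:**
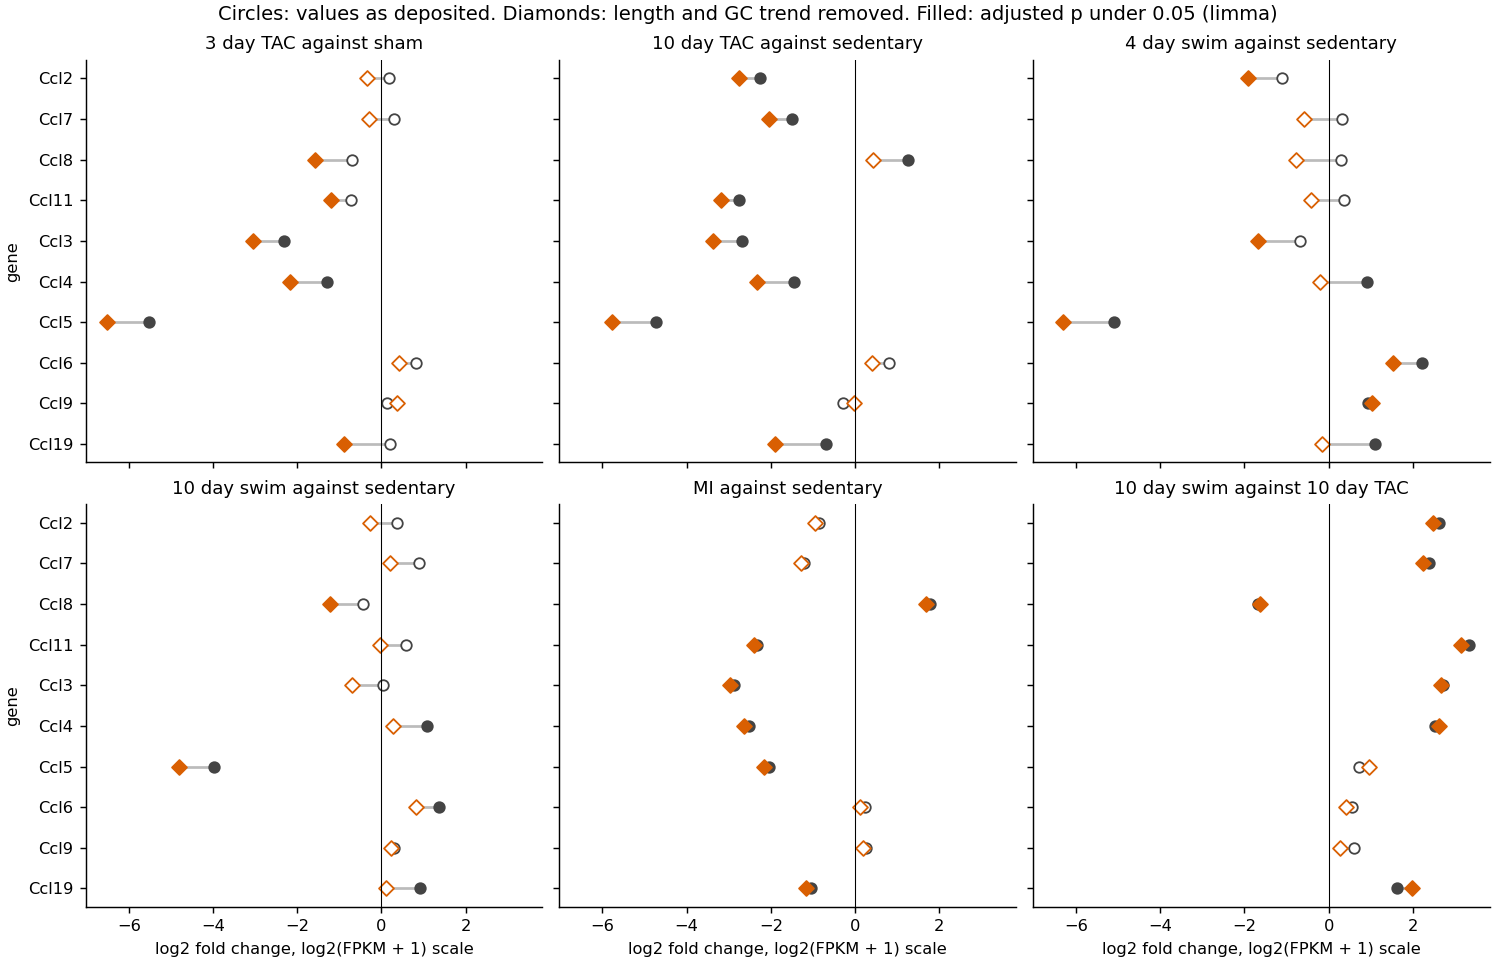
Log2 fold change of each gene (rows) in 6 comparisons, as deposited (circles) and with each library's trend on transcript length and GC content removed (diamonds); filled symbols have an adjusted p under 0.05. In the TAC and swim comparisons with sham or sedentary the diamonds of most genes lie to the left of the circles, as for Ccl4 at 4 days of swimming (0.91 and -0.21), while they nearly coincide for MI against sedentary and for 10 day swim against 10 day TAC.

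Whether the time courses differed was tested as the change from 3 to 10 days of TAC minus the change from 4 to 10 days of swimming. The times do not match, and the difference carries the start of both courses. The difference was negative and past the threshold for 4 members (1.86% of all genes) and positive for none (4.31%): Ccl2 (-3.99, SE 1.03, adjusted p = 0.0369), Ccl7 (-2.78, SE 0.575, adjusted p = 0.0112), Ccl11 (-2.27, SE 0.439, adjusted p = 0.00743) and Ccl19 (-1.14, SE 0.311, adjusted p = 0.0391). Ccl2 fell below the threshold without any 1 of 10 day TAC library 1 (adjusted p = 0.0688) or 3 (0.0794), 3 day TAC library 1 (0.093) or 2 (0.0897), 10 day swim library 1 (0.108) or 3 (0.105), or 4 day swim library 1 (0.0603) or 2 (0.0996). Ccl19 did so without 10 day TAC library 2 (0.079) or 3 (0.076), 3 day TAC library 1 (0.0658), 2 (0.0587) or 3 (0.0596), 10 day swim library 1 (0.0983) or 3 (0.106), or 4 day swim library 1 (0.0762) or 2 (0.0558). Ccl7 and Ccl11 passed it without each library in turn.

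Of 14 other CC chemokine genes, 7 were tested. Ccl24, the second eotaxin, ranged from 1.56 to 3.95 FPKM in sedentary, 0.674 to 2.77 in 10 day TAC, 0.351 to 0.519 in MI, 7.41 to 9.97 in 4 day swim and 5.22 to 6.04 in 10 day swim libraries. Like Ccl11, it was higher after 10 days of swimming than of TAC (log2 fold change 1.55, SE 0.278, adjusted p = 0.00103) and lower after MI than in sedentary cells (-1.23, SE 0.311, adjusted p = 0.015). Ccl12, another CCR2 ligand of the mouse, was lower after MI than in sedentary cells, at 2.3 and 3.32 against 21.4, 15.6 and 7.38 FPKM (-1.95, SE 0.438, adjusted p = 0.00735). In 10 day swim against 10 day TAC 1 of the 7 was higher (10.9% of all genes) and none lower (13.2%). In MI against sedentary 2 were lower (2.34%) and none higher (8.93%). From 3 to 10 days of TAC limma called none (2.18% of all genes fell and 4.42% rose), with 0 at an unadjusted p under 0.05.

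Of 15 receptors, 10 were tested. From 3 to 10 days of TAC limma called no receptor (2.18% of all genes fell and 4.42% rose), and 1 had an unadjusted p under 0.05. In 10 day swim against 10 day TAC 1 receptor was higher (10.9% of all genes) and none lower (13.2%). That one was Ccrl2, an atypical receptor (1.33, SE 0.324, adjusted p = 0.008). Ccr2 was at 2.35 and 4.73 FPKM after MI against 1.11, 2.12 and 0.926 in sedentary cells (0.91, SE 0.288, adjusted p = 0.0499), a call that was not kept with the length and GC trend removed (0.80, adjusted p = 0.0778). Ackr4, a scavenger that binds Ccl19, was at 4.76, 2.42 and 5.57 FPKM in sedentary, 13, 16.2 and 15.1 in 10 day TAC and 15.4, 22.5 and 17 in 10 day swim fibroblasts. The sedentary libraries lay below all of these, while the 10 day TAC and 10 day swim libraries overlapped. Ackr4 was higher than sedentary after 10 days of TAC (1.63, SE 0.27, adjusted p = 6.51e-05) and 10 days of swimming (1.91, SE 0.27, adjusted p = 6.22e-05), and both Ackr4 calls were kept with the trend removed (1.67 and 1.74). Sham libraries were at 2.89 to 4.69 and MI at 1.91 to 2.48 FPKM, against 6.2 to 8.66 in 3 day TAC and 9.48 to 20.5 in 4 day swim libraries. Ackr4 thus divided the fibroblast libraries as the length dependence does, and the 2 cannot be told apart by group.

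Genes that induce CC chemokines or relay that signal, were counted in a list of 29 with 26 tested. After 10 days of TAC 15 were lower than sedentary (27% of all genes) and 1 higher (38.8%), after 3 days 12 were lower than sham (25.8%) and 1 higher (31.3%), and in 10 day swim against 10 day TAC 12 were higher (10.9%) and none lower (13.2%). The median log2 fold changes of the list were -0.76, -0.61 and 0.53, against 0.12, 0.05 and 0.02 over all genes. With the trend removed 17, 11 and 13 genes of the list were called in these directions and none in the other. The medians of the list were then -0.89, -0.55 and 0.68, against 0.02, 0.02 and -0.03 over all genes. The share of all genes called with the trend removed is not given here. After 4 days of swimming 9 were lower than sedentary (26.3% of all genes) and 3 higher (38.2%), with a median of -0.17 against 0.13, and with the trend removed 10 were lower and 1 higher. Against sedentary, 10 days of swimming had 4 lower (13.6%) and 5 higher (30%), and 4 lower and 2 higher with the trend removed. After MI 3 of the list were lower than sedentary (2.34% of all genes) and 1 higher (8.93%), with a median of -0.17 against 0.10. With the trend removed 5 were lower and 1 higher after MI. Tnf, a cytokine that switches on kappa B signalling, was at 44.3 to 90.3 FPKM in sedentary, 7.61 to 23 in 10 day TAC, 2.89 to 6.73 in MI and 37.1 to 129 in 10 day swim libraries (10 day swim against 10 day TAC: 2.31, SE 0.454, adjusted p = 0.0022). Ifnb1, or interferon beta, was at 7.4 to 16.1 in sedentary, 0.716 to 1.85 in 10 day TAC, 0.351 to 1.81 in MI and 7.82 to 29.1 in 10 day swim libraries (3.10, SE 0.557, adjusted p = 0.0014). Il1a, at 3.64 to 7.98, 0.31 to 1.14, 1.72 to 2.31 and 2.58 to 15.1 in the same 4 groups, was also higher after 10 days of swimming than of TAC (2.32, SE 0.448, adjusted p = 0.00217). Il6 was higher in MI (93.2 to 162) and in 10 day swim libraries (42.6 to 208) than in 10 day TAC ones (8.68 to 15.7; 3.26, adjusted p = 0.00869, and 3.09, adjusted p = 0.0175). Il1b had a different order, at 12.2 to 36.4 FPKM in MI and 6.66 to 35.5 in 3 day TAC libraries. It was at 5.87 to 14.1 in sedentary, 2.97 to 6.26 in 10 day TAC and 2.81 to 9.91 in 10 day swim libraries. These are levels beside those of the chemokines, and no dependence between them was tested.

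**Figure D4:**
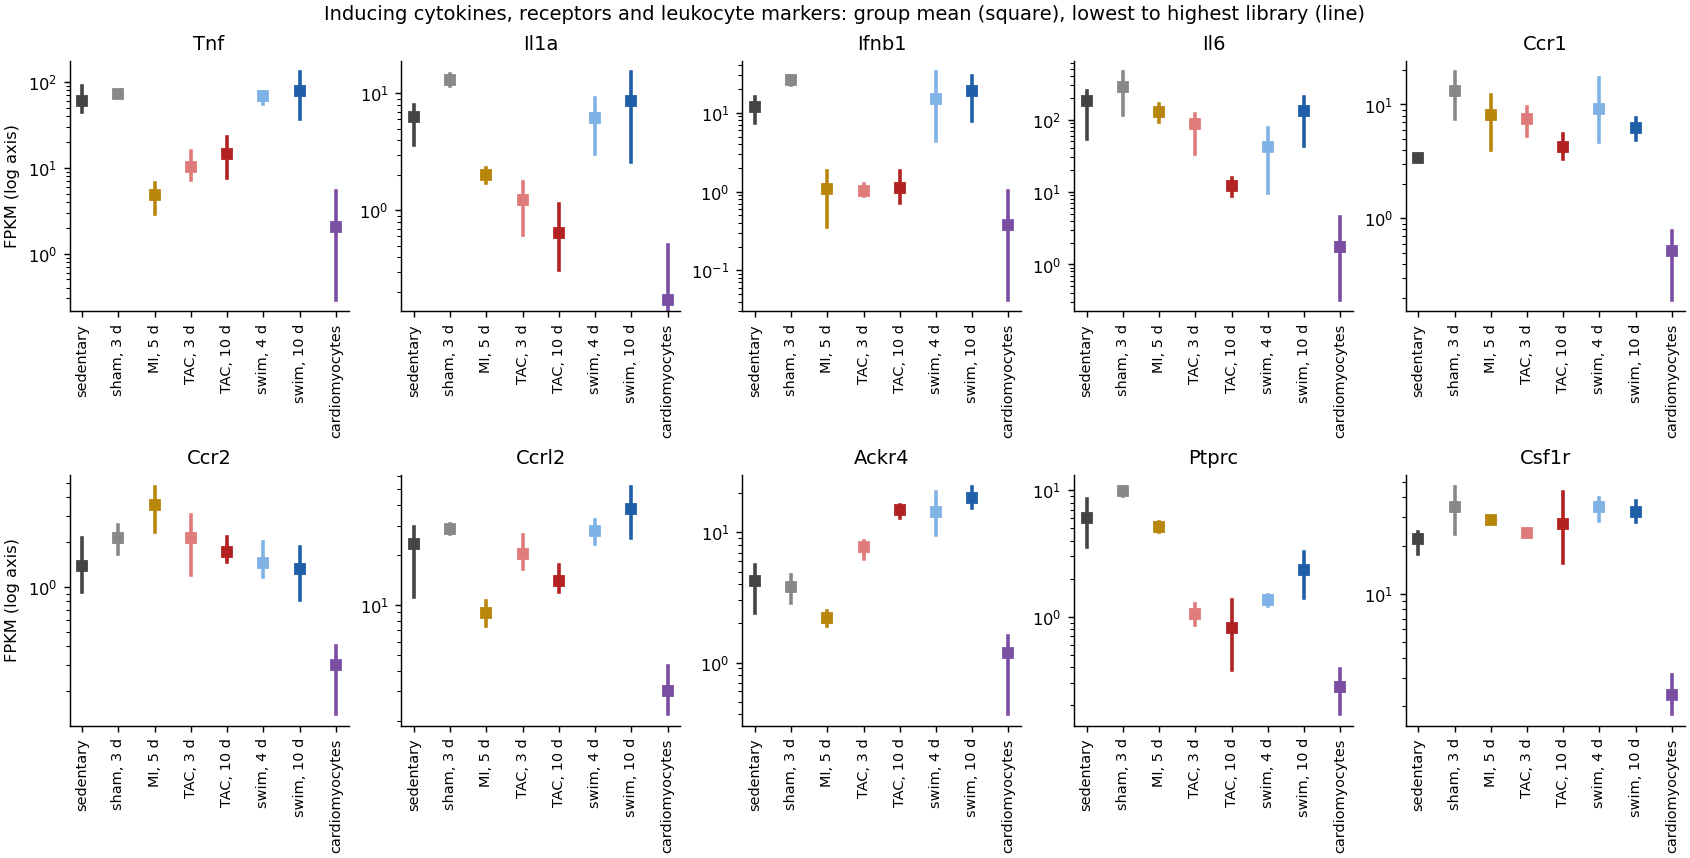
FPKM (log axis) of inducing cytokines, receptors and leukocyte markers by group; squares are group means and lines run from the lowest to the highest library, reaching the lower edge where a library is listed at 0. Tnf, Il1a and Ifnb1 are lower in the TAC and MI groups than in sedentary, sham and swim fibroblasts, while Csf1r stays between 15.5 and 46.6 in all fibroblast libraries.

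In sedentary cardiomyocytes all 10 members were lower than in sedentary fibroblasts (38.6% of 10371 genes tested were lower and 38.7% higher), with a median log2 fold change of -3.87 against -0.05. Ccl2 was at 43, 2.76 and 3.93 FPKM (-6.44, SE 0.914, adjusted p = 9.41e-06), Ccl7 at 23.6, 1.16 and 3.95, Ccl4 at 25.4, 0.966 and 0.7, Ccl3 at 9.92, 0.487 and 1.91, and Ccl5 at 0.405, 0.388 and 0.643. Cardiomyocyte library 1 was above the others for Ccl2, Ccl7, Ccl3 and Ccl4, and its 10 genes summed to 115 FPKM against 11.4 and 22.4. Without it all 10 stayed lower, with Ccl2 at -7.55 (adjusted p = 4.44e-07). The smallest difference was that of Ccl6, at 5.99, 2.95 and 6.17 FPKM in cardiomyocytes (-1.33, SE 0.392, adjusted p = 0.00459). With the length and GC trend removed all 10 were again lower, with Ccl19 at -2.46 in place of -1.47. All 10 receptors tested were lower too (9 with the trend removed), and the macrophage and monocyte markers, 13 of 15 lower, summed to 152 to 283 FPKM; their part in the chemokine difference was not tested.

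The genes with patterns nearest to the members, by the root mean square difference of centred log2(FPKM + 1) over the 19 fibroblast libraries among 8745 genes, are given as a description. For Ccl3 they were Cxcl2 (0.357) and Il1a (0.538), where Ccl3 itself varied by 1.32. For Ccl7 they were Mt1 (0.346) and Adm (0.397). For Ccl2, with a spread of 1.2, the second nearest was S1pr3 (0.462). For Ccl11, with a spread of 1.27, they were Gsn (0.444) and Penk (0.452). Ccl5, with a spread of 2.24, was nearest to Gvin1 (0.86) and Parp14 (0.925). For Ccl8, with a spread of 1.05, Serpina3a (0.645) and Serpina3n (0.649) came nearest. The libraries share depth and length dependence, which enter these distances.

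The authors' deposited table of pairwise Cuffdiff tests called all 3 members that limma called for 3 day TAC against sham, 7 of 8 for 10 day TAC against sedentary, 6 of 6 for MI against sedentary, 4 of 5 and 4 of 4 for 4 and 10 days of swimming, 7 of 7 for 10 day swim against 10 day TAC, 5 of 5 for 10 against 3 days of TAC and 10 of 10 for cardiomyocytes, each in the same direction. Cuffdiff also marked members that limma did not call. Among them were Ccl2 for 10 against 3 days of TAC (Cuffdiff q = 6.04e-13) and Ccl7 for MI against sedentary (0.038). Others were Ccl6 for 10 day TAC against sedentary (0.011) and Ccl5 for 10 day swim against 10 day TAC (0.0213). Both sets of calls come from the same libraries.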

How the data were processed

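Polyadenylated RNA was sequenced as stranded libraries, per the labels' protocols. The deposited table gives FPKM for 22 libraries, made with Cufflinks 2.0.2 on mm10 per the submitters' processing notes; for the aligner and the annotation, the sources used here give no name. A Cuffdiff table deposited by the authors gives log2 fold changes with p-values and q-values for pairs of groups; its group names were matched to the labels by reading. Read counts were not used here, so no count test was run and the depth of each library is known only relative to the others (1 to 3.3).

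Groups follow the labels. Differences were tested with limma 3.58.1 (R 4.3.3; trend and robust) on log2(FPKM + 1), over genes that reached an FPKM of 1 in 2 or more libraries, with Benjamini-Hochberg adjustment over all genes tested: 9425 in the fit of 19 fibroblast libraries and 10371 in the fit of all 22. A fold change on this scale understates the change of low genes. The script was tested on simulated data. Alternatives were a pseudocount of 0.1, no filter, plain limma, libraries scaled to one median, removal of the trend on GENCODE transcript length and GC content (splines, 4 degrees of freedom), only the groups compared, each library left out, and a replicate block. The genes named are the 10 members, members of the lists of other CC chemokines, receptors, inducers and cell markers, and the 2 nearest patterns per member; a few of these are not reported here. The members and lists were chosen with earlier results of these data known. Lists are described by counts and medians and were not tested as sets.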

Additional observations from a re-analysis of the deposited data

Results flagged for a closer look

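The change from 3 to 10 days of TAC differed from the change from 4 to 10 days of swimming for 4 of the 10 CC chemokines, by limma's test of the difference itself (TAC course minus swim course, log2 scale). The values were -3.99 for Ccl2, -2.78 for Ccl7, -2.27 for Ccl11 and -1.14 for Ccl19. All 4 were negative, and none of the other 6 members passed the test. The courses start on different days, and the group means show where the differences arose: Ccl11 went from 6 to 0.819 FPKM in TAC and from 13.7 to 16 in swimming, and Ccl7 from 642 to 140 and from 537 to 737. The Ccl2 and Ccl19 calls did not hold without several single libraries, while Ccl7 and Ccl11 passed without each library in turn.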

How the results depend on the processing

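Of 120 member values in 12 comparisons, 55 passed limma's threshold. Of these, 53 kept their direction under every alternative run, 35 were called under every alternative, and 39 were called without each library in turn. Removing the length and GC trend reversed 2 values at 4 days of swimming against sedentary, Ccl4 (-0.21) and Ccl19 (-0.15), ended 8 calls in all, and gave 6 members called for 3 day TAC against sham in place of 3 and 2 for 10 day swim against sedentary in place of 4. The cause of the length dependence was not tested.

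With no filter, more genes enter the adjustment, and the members called were 3 rather than 5 at 4 days of swimming, 1 rather than 2 for MI against 10 day TAC, 3 rather than 5 for 10 against 3 days of TAC and 2 rather than 4 for the difference of the time courses (adjusted p for Ccl2 0.0576 and for Ccl19 0.0723). The single call of sham against sedentary (Ccl8) became 0 with plain limma, with libraries scaled to one median, with the length and GC trend removed and with only those groups in the fit. The change of Ccl2 from 3 to 10 days of TAC (-2.52) passed the threshold with plain limma, median scaling (-2.49), the trend removed (-2.31) and only those groups in the fit. Ccl5 and Ccl19 for MI against sedentary were lost with only those groups in the fit (adjusted p = 0.108 and 0.0501).

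Leaving out single libraries gave 3 to 5 members called at 4 days of swimming, 0 to 2 for sham against sedentary, 1 to 2 for MI against 10 day TAC, 3 to 5 for 10 against 3 days of TAC and 2 to 5 for the difference of the courses. An arm left with 1 library was assumed to vary like the other groups. Over all genes, the calls for MI against sedentary were 1063, and 1706 with no filter, 591 with only those groups and 310 without MI library 2. The 2279 calls for 10 day swim against 10 day TAC were 1028 to 1106 without 10 day TAC library 3 or 10 day swim library 1 or 3. The 622 calls for 10 against 3 days of TAC were 299 to 392 without 3 day TAC library 1 or 3 or 10 day TAC library 2. The 581 of the course difference were 193 to 1199 without single libraries, the 30 of 10 against 4 days of swimming 1 to 121 and the 2 of sham against sedentary 0 to 144 over all alternatives.

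A replicate block on the numbers in the titles left 6 members called for MI against sedentary and 10 for cardiomyocytes (970 and 8058 genes in all). Deviations of cardiomyocyte and fibroblast libraries with the same tag in the title correlated at 0.233, 0.065 and 0.314, and those with different tags at -0.264 to 0.081. For MI and sedentary libraries the same tag gave -0.171 and -0.361, and different tags -0.292 to 0.361. Deviations within a group cancel, so values for the same and for different tags are not independent. With 2 MI libraries the deviations are mirror images and each value recurs with the opposite sign, so they cannot decide on pairing. The labels do not say whether a shared tag marks paired samples, and the main fits did not pair them. The other comparisons of 2 groups shared at most 1 tag, too few for a block. The 3 day TAC and 4 day swim libraries shared the tags L1 and R1 (correlations of 0.103 and 0.458), and a replicate block on them, added after seeing the data, left 4 members called for the difference of the courses (466 genes in all). Low levels limit Ccl5 in both TAC groups (means of 1.52 and 2.76 FPKM) and after 4 days of swimming (2.05). They also limit Ccl11 (0.819) and Ccl19 (1.9) at 10 days of TAC, and Ccl11 (1.32) and Ccl19 (1.27) after MI.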
